A study of Mus musculus with 8 samples.

Results

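Gene expression in E8.5 mouse embryos lacking Runx1 was compared with that in wild-type embryos of the same stage, using 4 of the 8 arrays of the series: 2 of knockout and 2 of wild-type embryos. All embryos came from a BALB/c background, and the study describes the tissue taken at embryonic day 8.5 as the embryo proper. The other 4 arrays, 2 wild type and 2 knockout at E12, entered only as a second set of samples. Total RNA was amplified in 2 rounds and hybridised to whole-genome Affymetrix mouse arrays. The study describes an established Runx1 knockout line. No source used here names the disrupted exon, the sex of the embryos, or whether several embryos were pooled for an array. The study calls its replicates biological, and each p-value rests on the scatter of 2 arrays per group.

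Of 18193 genes measured, 5294 (29.1%) were separated, with both knockout arrays above the wild-type arrays (2457, 13.5%) or both below (2837, 15.6%), and 338 of these also differed by 2-fold or more between the group means. A gene was set aside as carried by a single wild-type array when leaving that array out shrank the difference by more than 1.5 times. This left 104 genes (0.572% of all measured) whose difference was present against both wild-type arrays, called shared genes here. Of these, 63 (0.346%) were higher and 41 (0.225%) were lower in the knockout. These genes were chosen by the values described, so the values are a description and not a test. Another normalization moved the split: after quantile normalization 56 genes were higher and 21 lower, and 69 of them were among the 104.

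RUNX1 is a transcription factor that binds DNA as part of a heterodimer with CBFβ. It is known for its part in the formation of definitive blood stem cells from endothelium. The E8.5 embryo has a beating heart tube, closing neural folds and forming somites, and its circulating blood consists mostly of primitive red cells made in the yolk sac. Its DNA site is commonly written as TGTGGT or TGCGGT.

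The promoters of the shared genes were searched for these letters on both strands, over the 250 bases before the RefSeq gene start. Of 104 shared genes, 90 had a promoter in the table, and 15 of them (16.7%) held either motif, compared with 20.5% of 14367 promoters of all genes measured. TGTGGT was in 8.89% of the shared genes and 13.7% of all, and TGCGGT in 8.89% and 7.77%. The share was 17.0% of the promoters of genes higher in the knockout and 16.2% of those lower. The 6 stretches printed show where the letters lie for genes described further on (GRCm38.p6, RefSeq, 5′ to 3′ on the strand of the gene, capitals mark the motif). A match in letters is a description and not a binding site.
Ifi35, chr11:101448314-101448343, plus strand, motif 86 bases before the start: aagtcttcccttTGCGGTcccaggagcaca
Ror1, chr4:100095683-100095712, plus strand, motif 96 bases before the start: gttaacaggaggTGTGGTagctgctttccg
Egr2, chr10:67537338-67537367, plus strand, motif 216 bases before the start: ttttcttttgctTGCGGTtttgagctgcca
Nebl, chr2:17462903-17462932, minus strand, motif 64 bases before the start: gttcatattatgTGTGGTgtttggtgtgtc
Rab39b, chrX:75578275-75578304, minus strand, motif 61 bases before the start: tctaacagacagTGTGGTgaaactactgcc
Phldb1, chr9:44735304-44735333, minus strand, motif on the opposite strand 123 bases before the start: ttgggctccagcACCACAagggcgtcttct
Among the 30 genes with the greatest shared differences, 25 had a promoter in the table and 2 of these held a motif, Ifi35 and Ror1.

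The wild-type arrays stood apart from each other. Across probe sets they correlated at r = 0.927 and 7038 probe sets were 2-fold or more apart, compared with r = 0.983 and 1331 probe sets for the knockout arrays. Wild type 2 was closer to knockout 2 (r = 0.979) than to wild type 1. Trophoblast genes were high in wild type 1, although the tissue is labelled as embryo proper. Prl7a1, a placental prolactin-family hormone, read 12.96 in wild type 1 and 4.37, 4.31 and 4.17 (log2 intensity) in wild type 2, knockout 1 and knockout 2. Across the 20 trophoblast and placenta genes measured, the log2 of the summed level was 15.71 in wild type 1 and 12.79, 13.25 and 13.02 in the other arrays. Xist, which is expressed from the inactive X chromosome, read 11.51 in wild type 1 and 5.93 to 6.25 in the other 3 arrays. Y-linked Eif2s3y read 2.60 in wild type 1 and 8.96 to 9.05 in the others. The actin signal of 3′ over 5′ probe sets, a sign of RNA or amplification length, was 1.48 and 2.61 (log2) in wild type 1 and 2 and 1.56 and 2.50 in knockout 1 and 2. Wild type 2 stood apart in its control probe sets. Its poly-A controls averaged 11.97 (log2), compared with 7.65 for wild type 1, 8.12 for knockout 1 and 6.12 for knockout 2. Its hybridization controls averaged 10.76, compared with 9.66 to 9.96 for the other E8.5 arrays. The part of these differences in the results was not tested.

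Of the 338 separated genes past 2-fold, 212 (1.17% of all genes) were carried by wild type 1 and 22 (0.121%) by wild type 2. The genes most carried by wild type 1 included Serpinb9g, Prl7a1 and Ceacam9, which read 12.06, 12.96 and 12.74 there and at most 4.37 elsewhere. On the higher side were Aldh1a2, the retinoic acid-synthesising enzyme of trunk mesoderm, Irx5 and Apela. Aldh1a2 read 5.04 in wild type 1, 9.79 in wild type 2, and 10.24 and 9.85 in the knockout. Wild type 2 carried the red-cell genes Ermap and Hemgn. Ermap read 5.55 and 7.99 in the wild-type arrays and 4.19 and 4.32 in the knockout. Hemgn read 4.53 and 7.02 in wild type against 4.03 and 3.30 in knockout. Steap3, the ferrireductase of red-cell precursors, was also carried by wild type 2, as were Arl2bp, Cryl1 and Cldnd1, which were higher in the knockout by 1.71, 1.68 and 1.55 (log2).

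**Figure D1:**
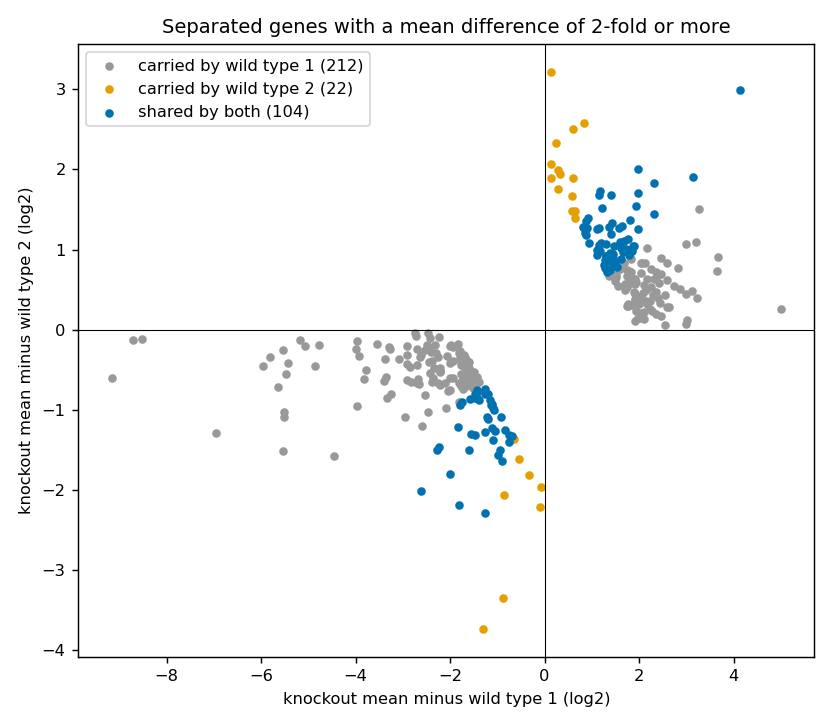
Each point is a gene separated in all 4 E8.5 arrays with a mean difference of 2-fold or more, plotted by the knockout mean minus wild type 1 (horizontal, log2) and minus wild type 2 (vertical, log2). The 212 genes carried by wild type 1 lie nearer the horizontal axis than the vertical, the 22 carried by wild type 2 nearer the vertical, and the 104 shared genes lie between them.

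At the limits of these classes, Ampd2 was the last shared gene, with a difference that shrank 1.48 times, and Oit3 the first carried, at 1.501 times. Pbxip1 (-1.001) was just inside the 2-fold limit and Stmn3 (0.9993) just outside it. The knockout arrays also weighed unequally: 73 of the 104 differences shrank by no more than 1.5 times without either knockout array, 21 rested on knockout 1 and 10 on knockout 2 by the same limit. Of 67 shared genes with several probe sets, 43 had the same direction in all of them, compared with 4483 of 9010 among all genes. The shared genes were chosen by a wide difference in these same arrays, so a higher share is partly given by the choice.

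No probe set passed limma's test across 45037 probe sets at an adjusted p below 0.05 (0.0%). The lowest adjusted p was 0.9998, and 1281 probe sets (2.84%) had an unadjusted p below 0.05. The study's own threshold, a moderated t beyond 3 in either direction with no correction for the number of tests, was passed by 1013 probe sets (2.25%), 536 of them higher (1.19%) and 477 lower (1.06%). Per gene it was passed by 428 (2.35%), with 229 higher (1.26%) and 199 lower (1.09%). The balance of directions depended on the fit: with all 8 arrays fitted together, 397 probe sets were higher and 532 lower, and after quantile normalization 537 were higher and 344 lower. Of the shared genes, 80 were past this threshold, 44 of them higher and 36 lower, and the same values had chosen them. Differences are therefore given with their standard errors and are not called. In limma's fit without wild type 2, 501 probe sets were called, which left wild type 1 as the only control.

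Runx1 itself was not lower in the arrays labelled knockout. All 6 of its probe sets were higher there, by 0.07 to 1.03 (log2). The brightest, which stood for the gene, read 6.16 and 5.95 in wild type against 6.41 and 6.86 in knockout, a difference of 0.58 (SE 0.24). The probe set with the widest difference, 1.03 (SE 0.19), read 5.26 and 5.09 against 6.09 and 6.33. The groups were separated in these and overlapped in the other Runx1 probe sets. Where the Runx1 probes lie relative to the disruption is not given in the sources used here, so they do not check the labels. Cbfb, which encodes the partner CBFβ that does not itself contact DNA, read 10.62 and 9.90 in wild type against 10.68 and 10.61 in knockout. Runx3 read 4.77 and 4.67 against 4.69 and 4.91, and Runx2 was not analysed here, since no probe set was paired with it alone. The groups overlapped for Cbfb and for Runx3.

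The widest shared difference was that of Fabp7, the fatty acid-binding protein of neural progenitors and radial glia. It read 3.01 and 4.14 in the wild-type arrays and 7.02 and 7.27 in the knockout arrays, an 11.8-fold higher mean (log2 difference 3.57, SE 0.44). The knockout arrays lay close together and well above both controls. Both wild-type readings were below the medians of their arrays (4.96 and 5.01), where background limits a fold. With a pseudocount of 16 added before the log, the log2 difference was 2.47 (SE 0.22). Pou5f1, which encodes the pluripotency factor Oct4 that persists for a time in the caudal embryo, read 4.14 and 5.38 in wild type against 7.07 and 7.48 in knockout (5.73-fold, log2 difference 2.52, SE 0.49). It was the only 1 of 22 pluripotency and epiblast genes measured that was a shared gene, and 13 of the 22 were lower in knockout. The adjusted p in limma was 0.9998 for both genes with all 4 arrays and 0.413 for both without wild type 1. Without wild type 2, which leaves the outlying wild type 1 as the only control, it was 0.0263 for Fabp7 and 0.0403 for Pou5f1.

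**Figure D2:**
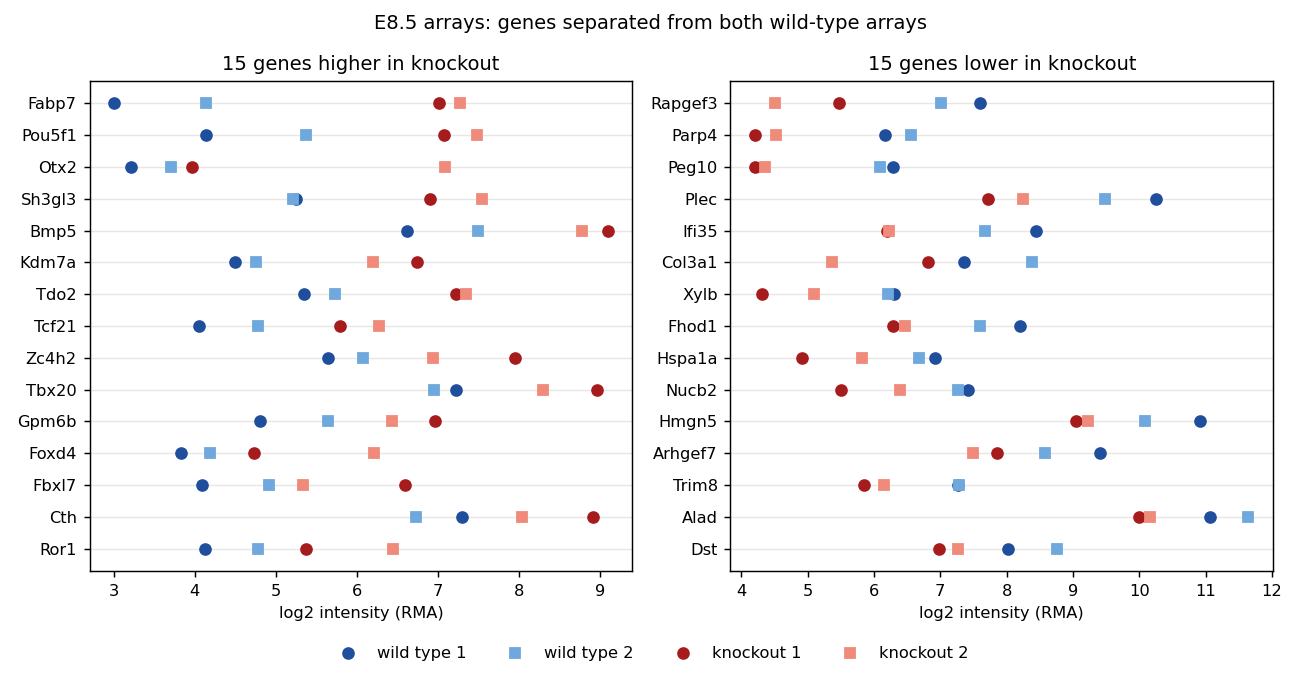
Log2 intensity in each of the 4 E8.5 arrays for the 15 higher and 15 lower shared genes with the greatest difference of means. Circles and squares are replicates 1 and 2, blue is wild type and red is knockout. In all 30 genes the knockout points lie on one side of both wild-type points. In some a knockout point lies near a control, as for Otx2, Foxd4 and Col3a1 (knockout 1) and Fbxl7 (knockout 2).

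The 7 shared genes grouped as neural and anterior, after their values were seen, were all higher. Otx2, the homeobox gene of forebrain and midbrain, read 3.21 and 3.70 in wild type against 3.97 and 7.09 in knockout, so that its difference of 2.07 (SE 1.13) rested on knockout 2. The same held for Hesx1, a forebrain and pituitary homeobox gene, which read 4.57 and 4.05 in wild type against 4.61 and 6.86 in knockout. Foxd4, a forkhead gene of the neural plate, read 3.84 and 4.18 against 4.74 and 6.22, a difference of 1.47 that was 0.73 without knockout 2. Fgf15, a growth factor of the neural tube, was steadier, with 5.97 and 6.05 in wild type against 7.12 and 7.66 in knockout (log2 difference 1.38, SE 0.25). Egr2, the hindbrain segment gene, was past 2-fold as well and was named after its values were seen (3.27 and 3.38 against 4.79 and 3.97). Gpm6b, a membrane protein of neurons and glia, read 4.81 and 5.65 in wild type against 6.96 and 6.43 in knockout. Of 33 neural plate and progenitor genes measured, 24 were higher and 9 lower, with a median of 0.14, compared with 8675 of 18193 higher and a median of -0.01 over all genes. The mean deviation of this neural list was -0.43 and -0.06 in wild type 1 and 2 and 0.10 and 0.38 in knockout 1 and 2. The shared members were 5 (0.346% of all genes were shared and higher): Fabp7, Otx2, Hesx1, Fgf15 and Egr2. Of these, Otx2 and Hesx1 rested on knockout 2 and Egr2 on knockout 1.

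Heart genes were on the higher side too. Tbx20, the T-box factor of the early myocardium, read 7.23 and 6.95 in wild type against 8.96 and 8.29 in knockout (log2 difference 1.54, SE 0.30), and all 3 of its probe sets were higher. Myl2, the ventricular myosin light chain, read 4.19 and 4.04 against 5.53 and 5.07 (1.19, SE 0.23). Csrp3, a Z-disc protein of heart muscle, read 3.93 and 4.51 against 5.57 and 5.17. Tnnc1, cardiac troponin C, read 6.56 and 6.13 against 7.72 and 7.09. In all 4 genes knockout 1 was the highest array. The atrial light chain Myl7, named after its values were seen, was carried by wild type 1 (5.35 and 7.46 against 8.81 and 8.31).

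Across the 30 heart genes measured, 24 were higher and 6 lower in the knockout with a median difference of 0.92, and no member was called. Of these 30 genes, 13 were separated higher and 3 lower, compared with 13.5% and 15.6% of all genes, and 4 were shared, compared with 0.572%. The mean deviation of the list from the mean of the 4 arrays was -0.70 and 0.01 in wild type 1 and 2 and 0.62 and 0.07 in knockout 1 and 2. Knockout 1 was the highest and wild type 1 the lowest array, while wild type 2 and knockout 2 hardly differed. The median was 0.36 without wild type 1, 1.07 without wild type 2, 0.58 without knockout 1 and 1.27 without knockout 2. Of 30 BMP pathway genes, 21 were higher with a median of 0.27, and Tbx20 and the ligand Bmp5 were shared. Bmp5, which signals through BMP receptors in early mesoderm and heart, read 6.61 and 7.49 in wild type against 9.09 and 8.78 in knockout (3.69-fold, log2 difference 1.88, SE 0.37). All 3 of its probe sets were higher.

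Further genes known from mesoderm and muscle were shared and were grouped after their values were seen. Tcf21, a factor of epicardium and organ mesenchyme, read 4.06 and 4.78 against 5.79 and 6.27, although only 1 of its 2 probe sets showed this direction. Dmd, which encodes dystrophin, read 5.50 and 5.94 against 6.62 and 7.08. Nebl, an actin-binding Z-disc protein, and Hey1, a Notch target of heart and vessels, rested on knockout 1, with 6.59 and 4.83 in the knockout arrays for Nebl and 8.10 and 7.11 for Hey1. The 9 heart and muscle genes of this group were all higher, by 1.04 to 1.88. Ryr1, a calcium channel of skeletal muscle, was shared and lower (-1.14, by both of its probe sets). It stands outside that group, so the common direction comes from the grouping.

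**Figure D3:**
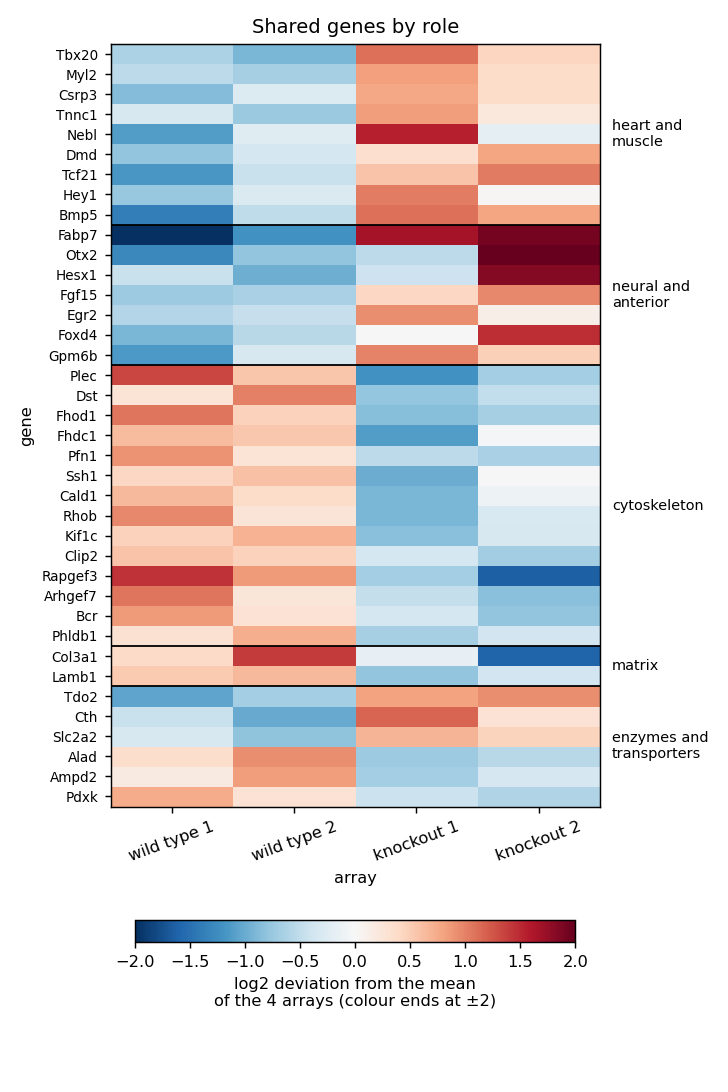
Deviation of each array from the gene's mean over the 4 E8.5 arrays (log2, blue below and red above, colour ending at 2 either way) for 38 shared genes sorted by role after their values were seen. Most heart, muscle and neural genes are red in the knockout columns and the cytoskeleton genes blue. Single dark cells mark values that rest on 1 knockout array, as for Otx2 and Hesx1. Knockout 1 is blue for Otx2 and Hesx1 and nearly white for Foxd4, and knockout 2 is blue for Nebl.

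Other genes higher in the knockout had varied roles. Sh3gl3, an endophilin of membrane endocytosis, read 5.25 and 5.22 in wild type against 6.90 and 7.54 in knockout (3.96-fold, SE of the log2 difference 0.28), with wild-type arrays that nearly coincided. Tdo2, the tryptophan-degrading enzyme of liver and decidua, read 5.35 and 5.73 against 7.22 and 7.34 (3.33-fold). Slc2a2, a glucose transporter of visceral endoderm and liver, read 10.01 and 9.53 against 11.01 and 10.77. These 2 genes were the shared members of 29 yolk sac endoderm genes, of which 26 were higher with a median of 0.30. The mean deviation of that list was -0.55 in wild type 1 and 0.11, 0.06 and 0.39 in wild type 2, knockout 1 and knockout 2. Kdm7a, a histone demethylase, read 4.50 and 4.76 against 6.74 and 6.19 and was higher by 3 of its 5 probe sets. Cth, the cysteine-forming enzyme, read 7.29 and 6.73 against 8.91 and 8.03. Zc4h2, a zinc-finger protein, differed by 1.58 (SE 0.42). Ror1, a Wnt receptor, read 4.13 and 4.78 against 5.37 and 6.44, a difference of 1.45 that was 0.92 without knockout 2, and 2 of its 3 probe sets were higher. Fbxl7, an F-box protein, read 4.09 and 4.92 against 6.59 and 5.33, a difference of 1.46 that was 0.83 without knockout 1, and 2 of its 4 probe sets were higher.

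Genes lower in the knockout were led by Rapgef3, the cAMP-activated exchange factor for Rap GTPases, which read 7.60 and 7.004 in wild type against 5.47 and 4.51 in knockout (4.96-fold lower, log2 difference -2.31, SE 0.43). All 5 of its probe sets were lower. It belonged to a group of 14 shared genes of cytoskeleton and cell adhesion, grouped after their values were seen, which were lower by 1.00 to 2.31 on the log2 scale. Other shared genes with roles in adhesion or the cytoskeleton were higher and stand outside that group, among them Cdh10, Cxadr, Mid1ip1, Chn2, Dmd and Nebl, by 1.13 to 1.36, so the common direction comes from the grouping. Plec, the cytolinker plectin, read 10.26 and 9.48 against 7.72 and 8.24 (-1.89, SE 0.37), and all 3 of its probe sets were lower. It was also the shared member of 26 surface ectoderm and epithelium genes, of which 24 were lower. That list had a mean deviation of 1.26 in wild type 1 and -0.34, -0.26 and -0.66 in wild type 2, knockout 1 and knockout 2. Its median of -0.60 became -0.10 without wild type 1. Fhod1, an actin-bundling formin, read 8.20 and 7.59 against 6.28 and 6.47. Pfn1, the actin-monomer-binding profilin, read 10.19 and 9.57 against 8.77 and 8.65. Dst, a cytolinker related to plectin, read 8.03 and 8.77 against 6.98 and 7.27, and Arhgef7, an exchange factor for Rac and Cdc42, 9.41 and 8.57 against 7.85 and 7.49, with only 1 of its 2 probe sets lower. The remaining members were Fhdc1, Ssh1, Cald1, Rhob, Kif1c, Clip2, Bcr and Phldb1. For Cald1, the actin- and myosin-binding caldesmon, all 5 probe sets were lower, compared with 1 of 2 for Fhdc1, 3 of 4 for Kif1c and 2 of 3 for Bcr. The differences of Fhdc1, Ssh1 and Cald1 rested on knockout 1, without which they shrank 1.86, 1.96 and 1.66 times.

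The 2 shared genes grouped as extracellular matrix, after their values were seen, were both lower. Lamb1, the laminin β1 chain of basement membranes, read 11.34 and 11.45 in wild type against 10.02 and 10.43 in knockout (-1.17, SE 0.22), by all 4 of its probe sets. Col3a1, the type III collagen chain, read 7.36 and 8.38 against 6.81 and 5.37, a difference of -1.78 that was -1.06 without knockout 2. The Col3a1 arrays within each group were further apart than wild type 1 and knockout 1. Nr2f2, the orphan nuclear receptor of veins and mesenchyme, was named after its values were seen and read 8.52 and 8.39 against 7.22 and 7.39 (-1.16, SE 0.17), by all 6 of its probe sets.

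Peg10, a paternally expressed gene of retrotransposon origin needed in the placenta, had the smallest standard error among the 15 genes with the greatest shared lower difference. It read 6.29 and 6.09 in wild type against 4.21 and 4.36 in knockout (3.74-fold lower, log2 difference -1.90, SE 0.18). It was the shared member of 20 trophoblast genes and of the imprinted genes, and its wild-type arrays lay close together while the trophoblast list had a mean deviation of 2.30 in wild type 1 and -0.87, -0.37 and -1.06 in the other arrays. The trophoblast median difference was -1.48 and became 0.075 without wild type 1. Ifi35, an interferon-induced protein, read 8.44 and 7.68 against 6.19 and 6.23 (-1.85, SE 0.31), by all 3 probe sets. Its adjusted p in limma was 0.9998 with all 4 arrays, 0.413 without wild type 1 and 0.0424 without wild type 2. It was the shared member of 24 interferon and antigen presentation genes, of which 18 were lower with a median of -0.26 and 5 were carried by wild type 1.

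Among enzymes and stress genes, Parp4, the vault poly(ADP-ribose) polymerase, read 6.17 and 6.56 in wild type against 4.21 and 4.52 in knockout (-1.997, SE 0.24). Xylb, xylulokinase, read 6.30 and 6.21 against 4.32 and 5.09. Hspa1a, the inducible Hsp70, read 6.93 and 6.67 against 4.92 and 5.83, and it was the shared member of 26 immediate early and heat shock genes, a list with a mean deviation of 0.85 in wild type 1 and -0.21 to -0.33 in the other arrays. Nucb2, a calcium-binding protein, read 7.42 and 7.26 against 5.50 and 6.39. Trim8, a ubiquitin ligase, read 7.27 and 7.28 against 5.86 and 6.15, with 2 of its 3 probe sets lower.

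The lists of blood genes, in which RUNX1 is best known to act, held 2 shared genes, Alad and Cd34. None of 24 red cell, 18 megakaryocyte and platelet or 22 macrophage and granulocyte genes was shared, nor was any of 27 endothelial genes or of 23 published RUNX1 targets. At the share of 0.572% over all genes, lists of this size hold less than 1 shared gene each, so these counts of 0 do not set the lists apart. Alad, an early enzyme of haem synthesis, was the shared member of 20 haem and iron genes. It read 11.07 and 11.65 in wild type against 10.0028 and 10.17 in knockout (-1.27, SE 0.26), and both of its probe sets were lower. Cd34, a surface protein of blood progenitors and endothelium, was the shared member of 18 blood stem and progenitor genes and was higher. It read 4.09 and 4.82 in wild type against 6.31 and 5.32 in knockout, a difference of 1.37 that was 0.87 without knockout 1. Of the 18 genes 14 were higher, with a median of 0.57 that became 0.11 without wild type 1. The red cell genes were lower in 23 of 24, with a median of -0.44 that became -0.068 without wild type 2. The mean deviation of that list was 0.95 in wild type 2 and -0.29, -0.35 and -0.31 in wild type 1, knockout 1 and knockout 2. Pf4, the platelet chemokine, named after its values were seen, read 5.27 and 5.08 in wild type against 5.004 and 4.99965 in knockout. Csf1r, the macrophage growth factor receptor, also named after its values were seen, was carried by wild type 1, with 8.84 and 6.79 against 6.01 and 6.32. In this whole-embryo RNA, fewer cells of a type and less RNA per cell cannot be told apart.

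Lists with no shared gene also included Hox, presomitic mesoderm and somite, neural crest, gut endoderm, cell cycle, and glycolysis and hypoxia genes. Of 24 Hox genes, 15 were higher with a median of 0.15, and none was shared or carried. Their mean deviation was -1.44 and 1.01 in the wild-type arrays and 0.31 and 0.12 in the knockout arrays, so the knockout lay between the controls. The presomitic mesoderm and somite list had -1.17 and 0.51 in wild type against 0.36 and 0.30 in knockout.

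**Figure D4:**
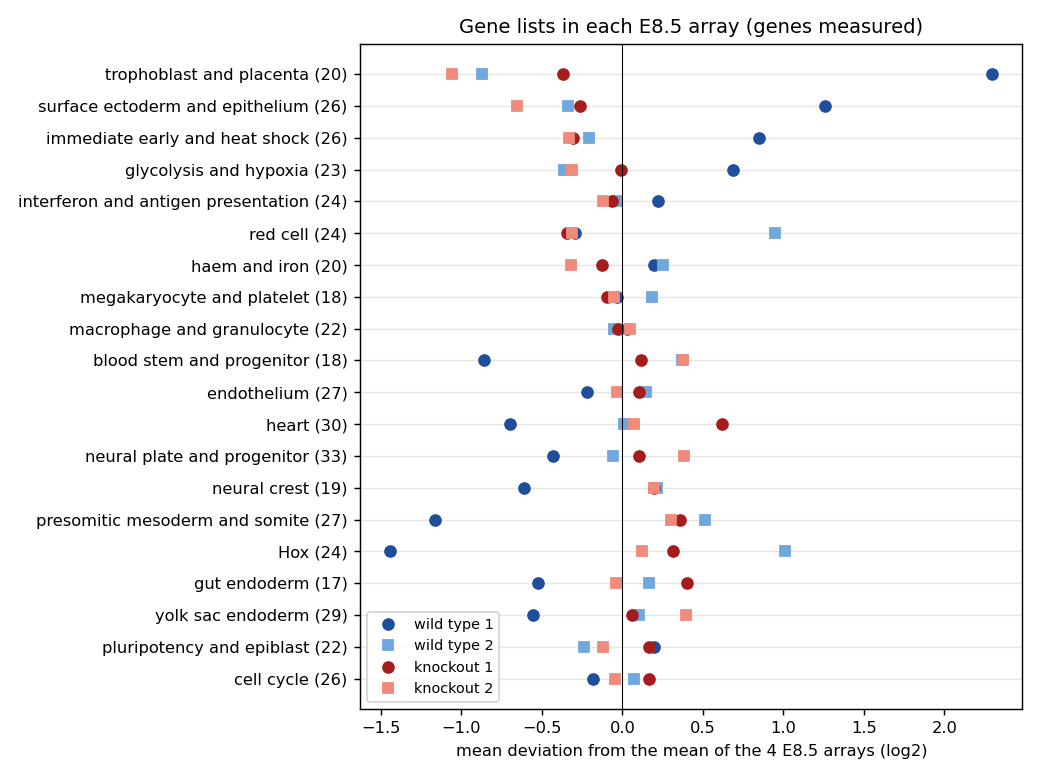
Mean deviation of each gene list from its mean over the 4 E8.5 arrays (log2), with the number of genes measured in brackets. Wild type 1 (dark blue circle) stands apart for trophoblast (2.30), surface ectoderm (1.26) and Hox genes (-1.44), and wild type 2 (light blue square) for red cell genes (0.95), and in these lists the knockout arrays are closer to each other than the wild-type arrays are.

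Genes on the X chromosome were frequent among those higher in the knockout. Of the 63 shared genes higher there, 10 (15.9%) were X-linked, compared with 1 of 41 lower (2.44%) and 617 of 18193 measured (3.39%). The 10 were Zc4h2, Gpm6b, Dmd, Maob, Stk26, Rab39b, Fam199x, Fundc2, Cltrn and Mid1ip1. Among genes higher and carried by wild type 1, the share was 11.96%. The median difference of the 10 was 1.24, and it was 1.01 without wild type 1 and 1.38 without wild type 2. The 10 were chosen for a difference kept without either wild-type array, so these medians were bound to stay high. Over all 617 X-linked genes the median difference was 0.05. Among separated genes under 2-fold, 4.55% of those higher and 2.70% of those lower were X-linked. Xist was high in wild type 1 and not in the other 3 arrays, and its part in this share was not tested. The lower X-linked gene was Hmgn5, a nucleosome-binding protein, with 10.92 and 10.09 in wild type against 9.05 and 9.23 in knockout.

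The E12 arrays, whose knockout differences had no part in choosing the genes although their levels helped to pick the probe set of each gene, gave a second reading of the 104 shared genes. In 70 of them (67.3%) the E12 difference had the same sign as at E8.5, compared with 58.4% of all genes, and its median in the E8.5 direction was 0.154 compared with 0.041. The share was 69.8% of the genes higher at E8.5 (all genes 57.5%) and 63.4% of those lower (59.2%). Among the genes set aside, it was 77.4% of the 212 carried by wild type 1 and 54.5% of the 22 carried by wild type 2. The same sign at E12 was thus not particular to the shared genes. For the shared genes, leaving out each E12 array in turn gave 59.6% to 73.1%, with 51.3% to 59.1% for all genes. Of the shared genes, 31 (29.8%) were separated at E12 in the same direction, compared with 19.3% of all genes. That share was 25.5% of the genes carried by wild type 1 and 31.8% of those carried by wild type 2. Among the 104 shared genes 1 was also 2-fold apart there, compared with 70 of all 18193 genes.

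The shared gene 2-fold apart at E12 was AI467606, a gene of unnamed function, named after its values were seen. It was 1.03 lower at E8.5 and 1.83 lower at E12 on the log2 scale. Ifi35, Pfn1 and Alad were lower at E12 too, by 0.82, 0.76 and 0.71, and Fabp7 and Bmp5 were higher, by 0.78 and 0.69. Pou5f1 differed by -0.15 at E12 and Peg10 by -0.18. None of the shared genes passed limma's test at E12, where 2 probe sets (0.00444%) were called, so these are directions and sizes only.

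**Figure D5:**
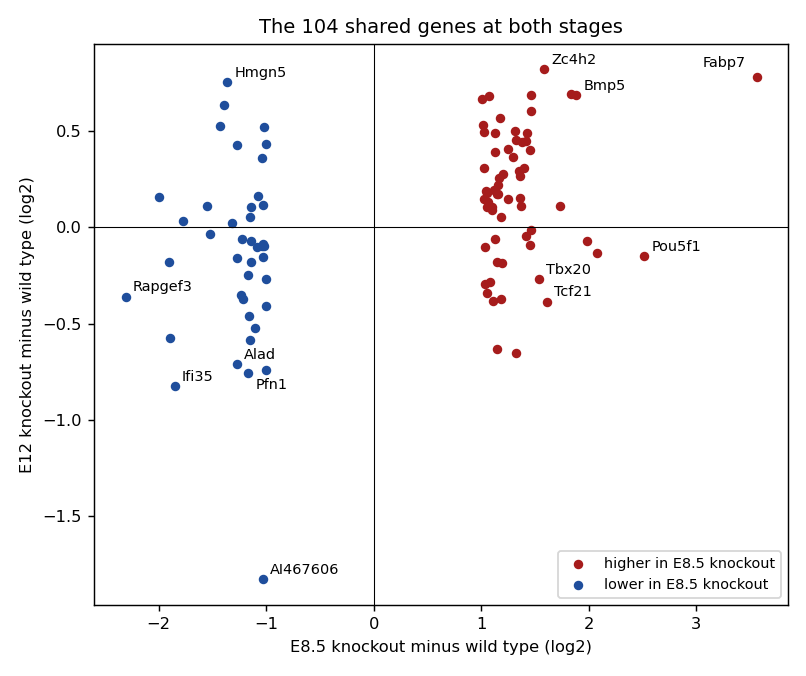
Knockout minus wild type for the 104 shared genes at E8.5 (horizontal, log2) and at E12 (vertical, log2), red for genes higher and blue for genes lower at E8.5. At E12 the points scatter around 0, with 44 of 63 red points above it and 26 of 41 blue points below it, and AI467606 lies farthest from it at -1.83.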

How the data were processed

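Total RNA of 8 mouse embryo samples was measured on 1-colour Affymetrix mouse genome arrays. The deposited values are linear intensities that the authors background-corrected, normalized and summarized by the Robust Multi-array Analysis algorithm. No source used here says whether all 8 arrays were normalized together or gives detection calls. The number of arrays limits the precision.

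Values were log2-transformed without a pseudocount. Of 45101 probe sets, 64 controls were left out and 45037 tested with limma 3.58.1 in R 4.3.3 (lmFit, eBayes, Benjamini-Hochberg), using the 4 E8.5 arrays alone because the mean residual variance was 0.215 there and 0.0735 at E12. The fit was tested on simulated data. Symbols came from the platform annotation: 34945 probe sets had 1 gene, 932 several and 9160 none named here. The probe set with the highest mean over 8 arrays stood for a gene.

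Genes named were the 15 shared genes with the greatest difference each way, up to 4 shared members of each list, the 3 genes each way most carried by each wild-type array, Runx1, Runx2, Runx3, Cbfb, Xist, Eif2s3y and those at the limits. Other names are stated as such or belong to a count. Members and gene lists were chosen with earlier results of these data known. Alternatives were the samples fitted, normalization, a pseudocount of 16, a filter on dim probe sets, the variance model, a replicate block, the probe set rule, the 1.5 limit and leaving out each array. Promoter sequences and chromosomes came from RefSeq (GRCm38.p6).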

Additional observations from a re-analysis of the deposited data

Results flagged for a closer look

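Some genes were separated in opposite directions at the 2 stages, the knockout arrays lying above both controls at one stage and below both at the other. The single-gene difference between stages was tested with limma over all 8 arrays. It called 2 probe sets, neither of them standing for a shared gene, and the lowest adjusted p of a shared gene was 0.9997. In all, 12 of the 104 shared genes (11.5%) were separated the other way at E12, compared with 11.3% of all genes and 8.97% of those separated at E8.5.

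Tbx20 differed by 1.54 (log2) at E8.5 and by -0.27 at E12, where it read 7.27 and 7.08 in wild type against 6.82 and 6.99 in knockout. Tcf21 differed by 1.61 and -0.39, and Tnnc1 by 1.06 and -0.34. These 3 genes of heart and mesenchyme were thus higher in the earlier knockout arrays and slightly lower in the later ones. Among genes lower at E8.5, Hmgn5 differed by -1.36 and then 0.75 and Nucb2 by -1.40 and then 0.63. Oit3, which lay just outside the shared genes, differed by 1.35 and then -0.59. Xist differed by -2.89 at E8.5, where wild type 1 alone was high, and by 2.62 at E12, where 1 knockout array alone was high (10.33 compared with 5.12 to 5.33).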

How the results depend on the processing

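With all 4 E8.5 arrays, limma called 0 probe sets in every alternative run, with 415 to 2272 probe sets at an unadjusted p below 0.05. Leaving out each array gave 0 to 501 calls, the 501 without wild type 2, where limma assumes that the lone wild-type array varies like the knockout arrays. The count past an absolute t of 3 was 1013 and became 222 with dim probe sets left out, 1560 with a pseudocount of 16 and 534 with an intensity trend and robust variance. It ranged from 524 to 5304 with each array left out (524 without knockout 1, 532 without knockout 2, 3909 without wild type 1, 5304 without wild type 2). The labels do not say that replicate numbers mark a shared batch, and with 2 pairs the deviations of same-numbered arrays correlated at 0.372. With the replicate number as a block, 0 probe sets were called and 1935 were past the t threshold. In place of the 104 shared genes there were 66 with a pseudocount of 16, of which 61 were among the 104. With the mean of all probe sets of a gene there were 53, of which 45 were among the 104. A stricter limit on shrinkage kept 53 of the 104. Without knockout 1 there were 168, with 64 of the 104, and without knockout 2 there were 213, with 83 of the 104. The 104 became 48 when a 2-fold difference was required against each wild-type array. They became 73 when the 1.5 limit was also applied to the knockout arrays. These 2 alternatives were chosen after seeing the data. With a wild-type array left out the limit cannot be applied. Among 58 named genes, 678 of 690 recomputed differences kept direction and side of the threshold, 10 passed it without wild type 2, and 2 changed sign: Runx3 ranged from -0.037 (without knockout 2) to 0.186 and Eif2s3y from -0.052 (without wild type 1) to 6.399 with an array left out. The cause was not tested. Dim genes are limited by background, since detection calls were not used here.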
